A study of Mus musculus with 6 samples.

Results

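Lck, Zap70, Lat, Cd8b1, Klrd1 and Ctsw are 6 genes of T cell signalling and of cytotoxic lymphocytes, and their RNA was compared between sgUhrf1 and sgNT tumours of a mouse lung cancer line. They were listed by name, and each was read from the counted row that lies over at least 50 bp of exon of that gene and of no other gene in the GRCm38 annotation, with small RNA genes set aside. They are 6 of 10772 genes that could be named this way, and 6 of the 4577 that also passed the filter on low counts. The series title and design ask how loss of Uhrf1 in the cancer cells bears on MHC class I and on immunity against the tumour.

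All 6 tumours grew from LG1233-OVA, mouse lung cancer cells that carry the model antigen ovalbumin. The 3 sgUhrf1 tumours came from a stable line labelled as an Uhrf1 knockout and made with CRISPR/Cas9, and the 3 sgNT tumours from the control line, labelled WT, with a non-targeting guide. Each recipient was a female C57BL/6 mouse, given 1000000 cells under the skin, and the tumours were taken on day 27. The labels call the tumours of a group biological replicates. They do not say whether a line is a clone, and they give no age. Host cells, lymphocytes included, keep an intact Uhrf1 gene, and total RNA of whole tumours was read after selection of poly-A RNA.

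A T cell recognises a peptide held by an MHC molecule on another cell through its receptor. The kinase Lck, carried by the co-receptor CD4 or CD8, then phosphorylates the CD3 chains of the receptor. Zap70 docks on these chains and phosphorylates the adaptor Lat, from which the signal spreads into the cell. CD8, made of an alpha and a beta chain, binds MHC class I, so that CD8 T cells read peptides such as those of ovalbumin on cancer cells. Klrd1 encodes CD94, a receptor chain of natural killer (NK) cells and of activated CD8 T cells, and Ctsw encodes cathepsin W, a protease of the same cells. Interferon gamma from such cells is known to raise MHC class I on the cells around them.

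The names of the deposited rows belong to another genome build than the reads, so the reads of the 6 genes stand under other names. Those of Lck stand under Kpna6, those of Zap70 under Gm33533, those of Lat under Mapk3, those of Cd8b1 under Gm44175, those of Klrd1 under Klrk1 and those of Ctsw under Gm6293. The longest coding stretch that each row counts is shown. The values given here come from the whole row, introns included, and not from this stretch alone. All are 5′ to 3′ on the strand of the gene, GRCm38, from the GENCODE M21 transcripts.
Lck, chr4:129551561-129551636 (minus strand): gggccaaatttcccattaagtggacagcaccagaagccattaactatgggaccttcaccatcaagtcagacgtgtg
Zap70, chr1:36779117-36779312 (plus strand): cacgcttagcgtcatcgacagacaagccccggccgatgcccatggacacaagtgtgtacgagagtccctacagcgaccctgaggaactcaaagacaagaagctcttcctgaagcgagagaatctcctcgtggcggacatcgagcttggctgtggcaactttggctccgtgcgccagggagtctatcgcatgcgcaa
Lat, chr7:126364559-126364621 (minus strand): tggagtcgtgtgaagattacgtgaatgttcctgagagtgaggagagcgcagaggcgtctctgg
Cd8b1, chr6:71332436-71332525 (plus strand): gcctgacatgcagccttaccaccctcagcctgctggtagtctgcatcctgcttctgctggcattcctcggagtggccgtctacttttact
Klrd1, chr6:129598349-129598466 (plus strand): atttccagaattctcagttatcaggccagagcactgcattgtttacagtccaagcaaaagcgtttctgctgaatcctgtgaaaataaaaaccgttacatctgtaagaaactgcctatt
Ctsw, chr19:5465593-5465730 (minus strand): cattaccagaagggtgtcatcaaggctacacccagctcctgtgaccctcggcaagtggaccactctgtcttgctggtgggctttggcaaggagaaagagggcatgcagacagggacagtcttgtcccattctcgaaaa

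The rows differ in how much of each gene they hold. Lck (chromosome 4, 129548344 to 129573641, minus strand) is read over 204 bp of exon, of which 76 bp are coding and 89 bp UTR. That row is 6729 bp long, with 1363 bp in introns of Lck and 5162 bp outside the gene, of which 4200 bp lie in introns of Hdac1. For Zap70 (chromosome 1, 36761798 to 36782818, plus strand) the row covers 649 bp of exon, 516 bp of them coding, beside 645 bp of its introns. A further 339 bp of that row lie outside the gene. Lat (chromosome 7, 126363824 to 126369570, minus strand) has 595 bp of exon in its row, 112 bp coding and 218 bp UTR, and 1451 bp of that row lie outside the gene.

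Cd8b1 (chromosome 6, 71322788 to 71337494, plus strand) is covered over 127 bp of exon, all coding, and over 3996 bp of its introns. A further 133 bp of its row lie outside the gene. The row of Klrd1 (chromosome 6, 129591782 to 129598775, plus strand) holds 597 bp of exon, 288 bp coding and 309 bp UTR, with 4737 bp outside the gene. Ctsw (chromosome 19, 5465043 to 5468507, minus strand) is read over 138 bp of coding exon in a row of 195 bp. Between 6.97% of the exon bases (Lck) and 46.6% (Klrd1) are covered, without regard to strand. Reads from introns or from transcripts on the other strand inside these intervals are therefore not separated, and levels of different genes are not compared.

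**Figure D1:**
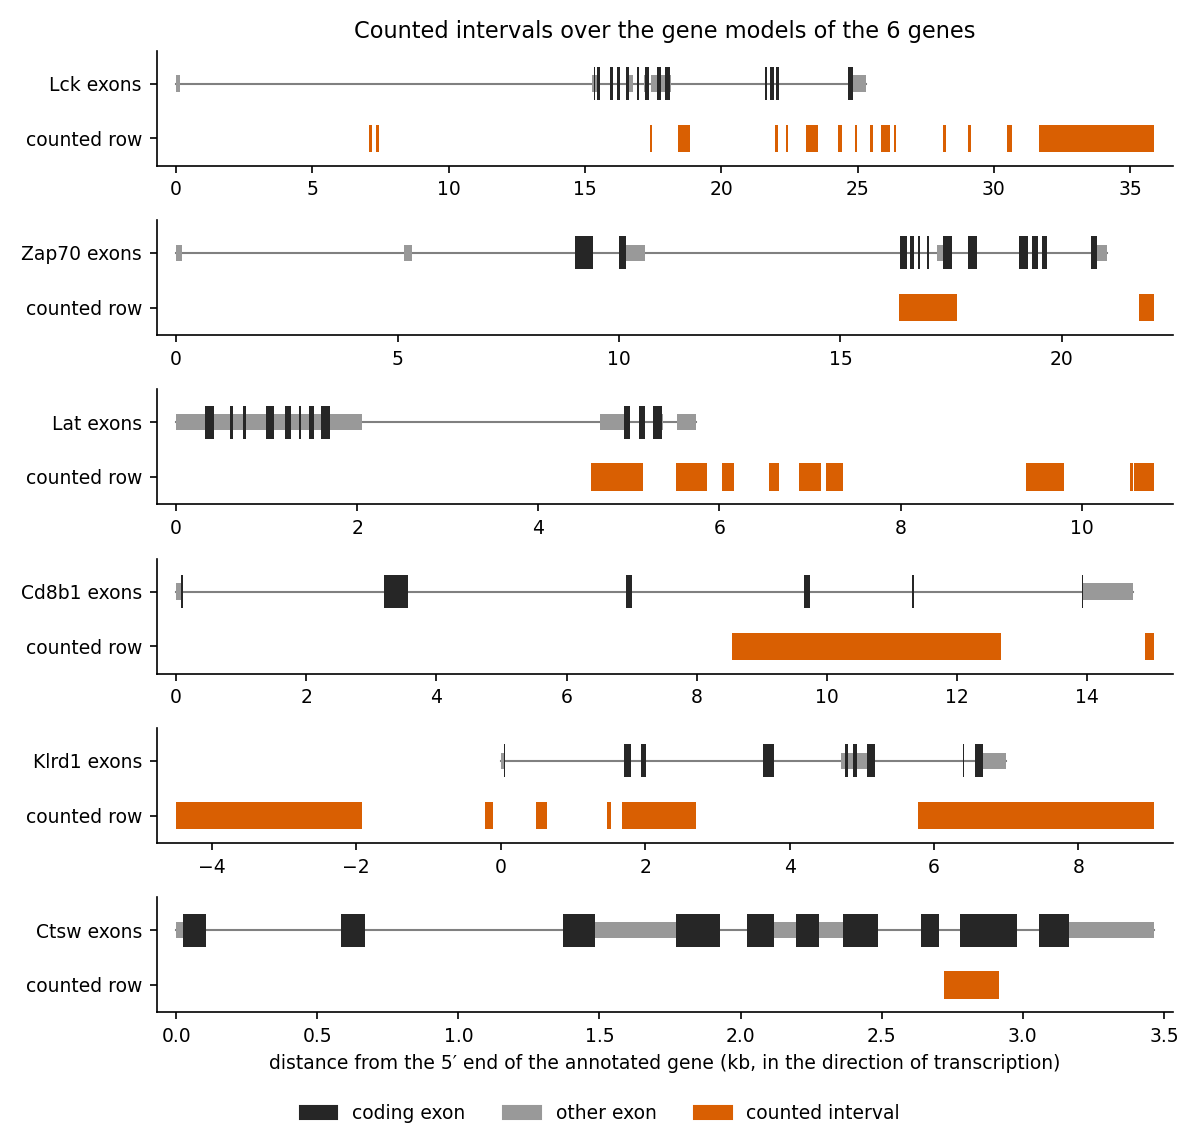
Each of the 6 tracks is a gene model drawn from its 5′ end in the direction of transcription (kb), with coding exons, other exons and the counted intervals of its row. The intervals reach 204 bp of Lck exon and 597 bp of Klrd1 exon, and those of every gene but Ctsw extend beyond the gene.

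The rows that carry the 6 names in the files lie over other places. The row listed as Zap70 lies over exons of Tmem131, and it held 117, 165 and 84 counts in sgUhrf1 tumours, against 167, 324 and 254 in sgNT tumours. Read by its name, it would have given a log2 fold change of -0.87 ± 0.28 (SE) with an edgeR quasi-likelihood adjusted p of 0.0356. The rows listed as Lck, Klrd1, Lat and Ctsw held at most 5 counts in any tumour.

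Some facts of the libraries stand before the results. Total counts ran from 5462555 to 6375069 per tumour over 16051 to 18771 detected rows, so that a count of 0 allows at most 0.445 to 0.660 CPM, counting error only; CPM are counts per 1000000 counts of the tumour, scaled with TMM, which evens out libraries of different makeup. Uhrf1 itself (row over 690 bp of its exon) stood at 121, 73.0 and 89.9 CPM in sgUhrf1 tumours, against 133, 136 and 98.2 CPM in sgNT tumours. Its log2 fold change was -0.37 ± 0.23 (edgeR adjusted p = 0.227), with overlapping groups. A second row over 238 bp of Uhrf1 exon stood at 6.90, 4.60 and 7.92 CPM in sgUhrf1 tumours, against 12.0, 19.7 and 9.04 CPM in sgNT tumours, without overlap (-1.08 ± 0.39, edgeR adjusted p = 0.0524), and 1 more, over 92 bp, held 0, 0 and 0 counts in sgUhrf1 tumours and 2, 7 and 0 in sgNT tumours. These levels do not check the labels, since a frameshift can leave the transcript and host cells carry the gene. Skeletal muscle RNA was high in 1 tumour of each group: 6 muscle genes summed to 415, 27.1 and 28.6 CPM in sgUhrf1 replicates 1 to 3, and to 10.1, 497 and 5.14 CPM in sgNT replicates 1 to 3. B cell RNA was high in sgNT replicate 3, where 3 B cell genes summed to 82.9 CPM, against 8.50 to 12.1 CPM in the sgUhrf1 tumours and 1.11 and 0.889 CPM in the other sgNT tumours. Ms4a1, the gene of the B cell antigen CD20, held 0, 1 and 3 counts in sgUhrf1 tumours, against 0, 2 and 329 in sgNT tumours.

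All 6 genes were higher in sgUhrf1 tumours than in sgNT tumours, by 6.47-fold (Klrd1) to 16.4-fold (Ctsw), with an edgeR quasi-likelihood adjusted p between 0.000839 and 0.00353. In each of them the lowest sgUhrf1 tumour lay above the highest sgNT tumour. Many genes differed between these tumours: 20.6% of the 4577 genes tested were called higher in sgUhrf1 tumours and 21.5% lower, and in 26.5% every sgUhrf1 tumour lay above every sgNT tumour. In bulk tumours, more T cells and more RNA of these genes per cell cannot be told apart. The median log2 fold change of the 6 genes was 3.12, against -0.0043 over all genes tested. The 6 genes were chosen with earlier results of these data known. This median and their ranks among all genes, given below, are therefore descriptions and no support for a difference. Of the 6, Zap70, Cd8b1 and Ctsw passed the filter on low counts only through their levels in sgUhrf1 tumours, so these counts over the list describe it and are no support for a difference.

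Lck, the kinase that starts the signal at the receptor, held 272, 201 and 423 counts in sgUhrf1 tumours, against 30, 12 and 64 in sgNT tumours. This was 48.2, 31.9 and 93.0 CPM (57.7 ± 31.7, SD, n = 3) in sgUhrf1 tumours and 4.75, 1.78 and 11.3 CPM (5.96 ± 4.89) in sgNT tumours. The groups did not overlap, and replicate 3 was the highest and replicate 2 the lowest of each. The log2 fold change of Lck was 3.29 ± 0.62 (SE; edgeR adjusted p = 0.00353). Without sgNT replicate 3, the tumour with B cell RNA, it was 4.14 (edgeR adjusted p = 0.00214). The 4200 bp of the row inside introns of Hdac1 are counted in these values, and their part in them was not tested.

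Zap70, the kinase that binds the phosphorylated receptor, held 87, 70 and 91 counts in sgUhrf1 tumours, against 6, 8 and 22 in sgNT tumours. It stood at 15.4, 11.1 and 20.0 CPM (15.5 ± 4.45) in sgUhrf1 tumours and 0.950, 1.19 and 3.90 CPM (2.01 ± 1.64) in sgNT tumours. Again the groups were apart, and the sgUhrf1 tumours spread less around their mean than for Lck. The log2 fold change of Zap70 was 2.95 ± 0.54 (edgeR adjusted p = 0.00324), and 3.82 without sgNT replicate 3 (adjusted p = 0.00151). A second row over 99 bp of Zap70 exon, which also covers 51 bp of the gene 4933424G06Rik, showed 15.9, 14.3 and 30.1 CPM in sgUhrf1 tumours and 3.01, 1.78 and 3.19 CPM in sgNT tumours. Its log2 fold change was 2.91 ± 0.42 (edgeR adjusted p = 0.00109), so that both rows over Zap70 moved by a like amount; of all rows tested, 20.2% were called higher.

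Lat, the membrane adaptor on which the signal branches, held 134, 114 and 196 counts in sgUhrf1 tumours, against 29, 21 and 30 in sgNT tumours. Its level was 23.7, 18.1 and 43.1 CPM (28.3 ± 13.1) in sgUhrf1 tumours and 4.59, 3.11 and 5.32 CPM (4.34 ± 1.12) in sgNT tumours. The lowest sgUhrf1 tumour was 3.40 times the highest sgNT tumour. The log2 fold change of Lat was 2.70 ± 0.40 (edgeR adjusted p = 0.00122). A row shared between 358 bp of Lat and 422 bp of Spns1, which encodes a lysosomal transporter, had a smaller one, 1.20 ± 0.20 (edgeR adjusted p = 0.00216). How its reads divide between both genes was not tested.

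Cd8b1, the beta chain of the co-receptor for MHC class I, held 103, 117 and 217 counts in sgUhrf1 tumours, against 14, 8 and 16 in sgNT tumours. It stood at 18.2, 18.6 and 47.7 CPM (28.2 ± 16.9) in sgUhrf1 tumours and 2.22, 1.19 and 2.84 CPM (2.08 ± 0.833) in sgNT tumours. The gap between the groups was the widest of the 6 genes, with the lowest sgUhrf1 tumour at 6.43 times the highest sgNT tumour. The log2 fold change of Cd8b1 was 3.76 ± 0.51 (edgeR adjusted p = 0.000839), and 3.15 without sgUhrf1 replicate 3. A further row, over only 34 bp of Cd8b1 exon, held 28, 22 and 28 counts in sgUhrf1 tumours and 4, 4 and 5 in sgNT tumours (log2 fold change 2.76 ± 0.51, edgeR adjusted p = 0.00327). The alpha chain gene, Cd8a, is read only in a row shared with 236 bp of Rmnd5a and with Gm44174; that row was at 0.83 ± 0.22 (edgeR adjusted p = 0.0174), with 47.8, 38.4 and 59.6 CPM in sgUhrf1 tumours and 28.7, 27.9 and 25.5 CPM in sgNT tumours.

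Klrd1, the CD94 chain that pairs with NKG2 receptors and binds a non-classical MHC class I molecule, held 252, 163 and 249 counts in sgUhrf1 tumours, against 73, 21 and 26 in sgNT tumours. Its level was 44.6, 25.9 and 54.8 CPM (41.7 ± 14.7) in sgUhrf1 tumours and 11.6, 3.11 and 4.61 CPM (6.43 ± 4.51) in sgNT tumours. Here the gap was the narrowest of the 6 genes, 2.24 times, with sgNT replicate 1 the highest of its group. The log2 fold change of Klrd1 was 2.69 ± 0.49 (edgeR adjusted p = 0.00310), and 3.41 without sgNT replicate 1 (adjusted p = 0.00183). Klrc1, which encodes NKG2A, the partner of CD94, stood at 14.7, 8.25 and 22.4 CPM in sgUhrf1 tumours and 4.12, 0.445 and 0.354 CPM in sgNT tumours. It too was highest in replicate 1 among the sgNT tumours.

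Ctsw, the cathepsin of cytotoxic cells, held 50, 36 and 46 counts in sgUhrf1 tumours, against 7, 1 and 1 in sgNT tumours. This was 8.85, 5.71 and 10.1 CPM (8.23 ± 2.27) in sgUhrf1 tumours and 1.11, 0.148 and 0.177 CPM (0.478 ± 0.546) in sgNT tumours. The values of sgNT replicates 2 and 3 lie below the floor of 3 counts, so the size of the difference is poorly fixed. The log2 fold change of Ctsw was 4.03 ± 0.69 (edgeR adjusted p = 0.00224), and 5.46 without sgNT replicate 1. A row shared by 315 bp of Ctsw with 344 bp of Ccdc85b and 16 bp of Fibp was at -0.09 ± 0.32 (edgeR adjusted p = 0.848). That row held 796 to 1328 counts in sgUhrf1 tumours and 985 to 1667 in sgNT tumours, against at most 50 in the row of Ctsw alone.

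**Figure D2:**
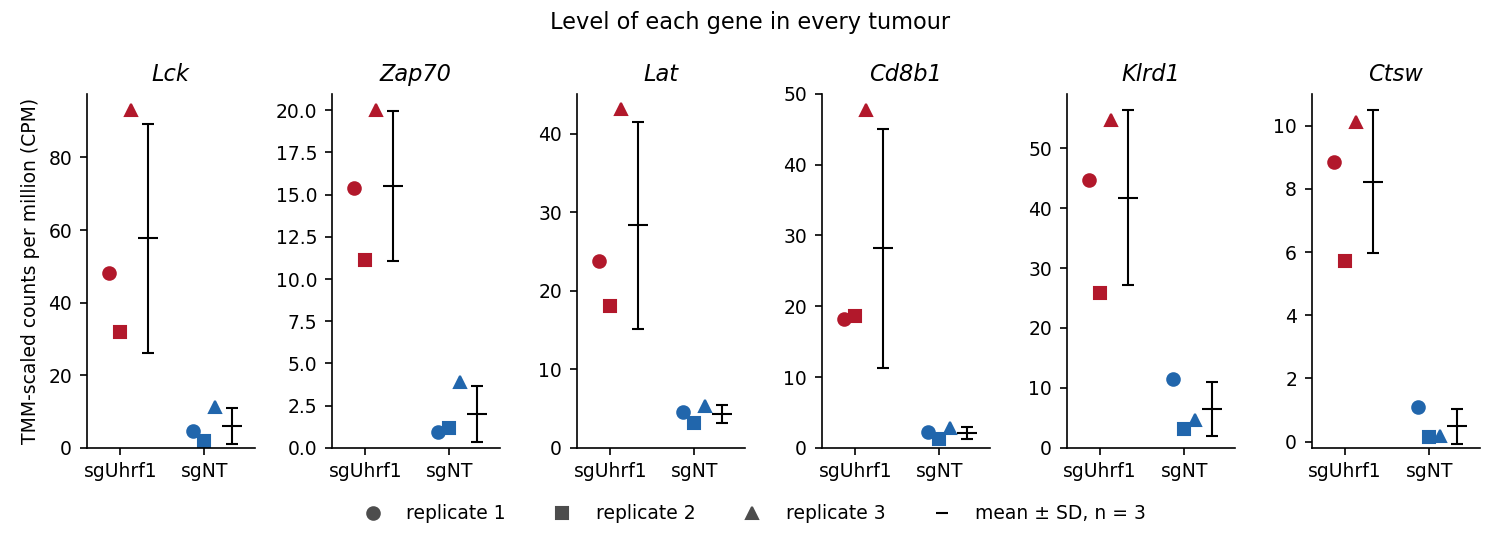
Levels of the 6 genes in TMM-scaled CPM in the 3 sgUhrf1 tumours (left) and the 3 sgNT tumours (right) of each panel, with markers for the replicates and the mean ± SD beside them. In every panel all sgUhrf1 tumours lie above all sgNT tumours, closest for Klrd1 (25.9 against 11.6 CPM).

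The 6 fold changes were not told apart from each other. Over the 15 pairs of genes the largest difference in log2 fold change was 1.34, between Ctsw and Klrd1, and the largest in units of its standard error was 1.68, between Ctsw and Lat, if the errors of both genes are taken as independent. Among all 4577 genes, ordered from the highest log2 fold change down, the 6 ranked between 135 (Ctsw) and 293 (Klrd1). Across the refits listed at the end, each of the 90 values kept its direction and its side of the threshold, between 2.27 and 5.46. Without sgUhrf1 replicate 1 and sgNT replicate 2, the tumours with most muscle RNA, the 6 values ran from 2.30 to 3.69, with an adjusted p of at most 0.0352 in edgeR; without sgNT replicate 3, the tumour with B cell RNA, they ran from 2.51 to 4.14, with at most 0.0128.

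Other genes of the receptor itself were partly readable. Cd3d and Cd3g, chains of the CD3 complex that carries the signal of the receptor, share 1 row that covers exons of no other gene. It held 392, 318 and 658 counts in sgUhrf1 tumours, against 47, 12 and 84 in sgNT tumours, a log2 fold change of 3.47 ± 0.65 (edgeR adjusted p = 0.00357). As for Lck, replicate 3 was the highest and replicate 2 the lowest in both groups. The row of Cd3e, shared with Gm48720, held 2, 6 and 4 counts in sgUhrf1 tumours and 1, 2 and 0 in sgNT tumours and was not tested. No row covers Gzmb, Prf1 or Nkg7, genes of the cytotoxic granule, or B2m, the light chain of MHC class I.

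Of 51 further genes of the T cell receptor pathway, 23 have a row of their own and 15 passed the filter. Of the 15, 8 rose and 0 fell (9 and 0 in both DESeq2 and limma-voom). The median log2 fold change of the 15 was 1.32. Over all 4577 genes tested 20.6% were called higher, the share to set beside the counts of this list and the lists below. These lists too hold genes, such as Ubash3a here and Klrc1 below, that passed the filter only through their levels in sgUhrf1 tumours. Their counts and medians therefore describe the lists and are no support for a difference. Nfatc2, a transcription factor that calcium signals bring into the nucleus, had 29.7, 53.0 and 67.3 CPM in sgUhrf1 tumours and 8.87, 5.78 and 7.27 CPM in sgNT tumours (log2 fold change 2.77 ± 0.35, edgeR adjusted p = 0.000594). Il2rb, the beta chain of the receptor for interleukin 2 and 15, rose by 2.71 ± 0.46 (adjusted p = 0.00225). Vav1, an exchange factor downstream of Lat, rose by 1.87 ± 0.38 (adjusted p = 0.00508). Skap1, an adaptor for integrin activation, rose by 1.75 ± 0.41 (adjusted p = 0.00890). Thy1 also rose, by 0.74 ± 0.22 (adjusted p = 0.0268), and fibroblasts express it as well. Fyn, the kinase closest to Lck in role, stood at 0.71 ± 0.36 (adjusted p = 0.140) with overlapping groups, and Lcp2, the adaptor SLP-76, at 1.15 ± 0.60 (adjusted p = 0.154); both were named after their values were seen. Without the muscle-rich tumours 4 of these genes were called. With rows shared with other genes counted too, 13 rows were called higher, a count of rows and not of genes. Of the 13 shared rows tested, 5 were higher and 1 lower, where 20.2% of all rows tested were higher.

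The other 8 genes of the list with a row of their own were too low to test. Cd5, a T cell surface gene, held 40, 11 and 44 counts in sgUhrf1 tumours, against 1, 0 and 3 in sgNT tumours, in a row over 56 bp of exon. Cd27, a costimulatory receptor gene, held 13, 10 and 29 counts in sgUhrf1 tumours and 3, 6 and 7 in sgNT tumours. Ptpn22, a phosphatase that restrains the pathway, lay the other way, with 4, 2 and 4 counts in sgUhrf1 tumours and 5, 13 and 20 in sgNT tumours. Cd6 and Themis held at most 1 count in any tumour. With no filter on low counts, 22 genes of the list were tested and 10 were called higher. Cd5, Cd27, Ptpn22, Cd6 and Themis were named after their values were seen, as were Ncr1 and Klrk1 below.

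Of 47 further cytotoxic lymphocyte genes, 10 have a row of their own and 6 passed the filter; 3 rose and 0 fell (4 and 0 in both DESeq2 and limma-voom), with a median of 1.46. Klrc1 rose by 3.17 ± 0.79 (edgeR adjusted p = 0.0121). Srgn, the proteoglycan that packs granule proteins and that other blood cells express too, rose by 1.43 ± 0.35 (adjusted p = 0.0118), with 237, 182 and 515 CPM in sgUhrf1 tumours and 104, 105 and 136 CPM in sgNT tumours. Gzme, a granzyme gene, rose by 1.49 ± 0.52 (adjusted p = 0.0471), with 38.4, 76.0 and 36.9 CPM in sgUhrf1 tumours and 26.3, 22.2 and 5.14 CPM in sgNT tumours. Here the order of the sgUhrf1 tumours was another one, with replicate 2 the highest. Only 1 of the 6 was called without sgNT replicate 2 and 1 without the muscle-rich tumours. With shared rows counted too, 7 rows were called higher. Of the 10 shared rows tested, 4 were higher and 1 lower. The row shared by Cd8a is counted in this list and in the pathway list.

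**Figure D3:**
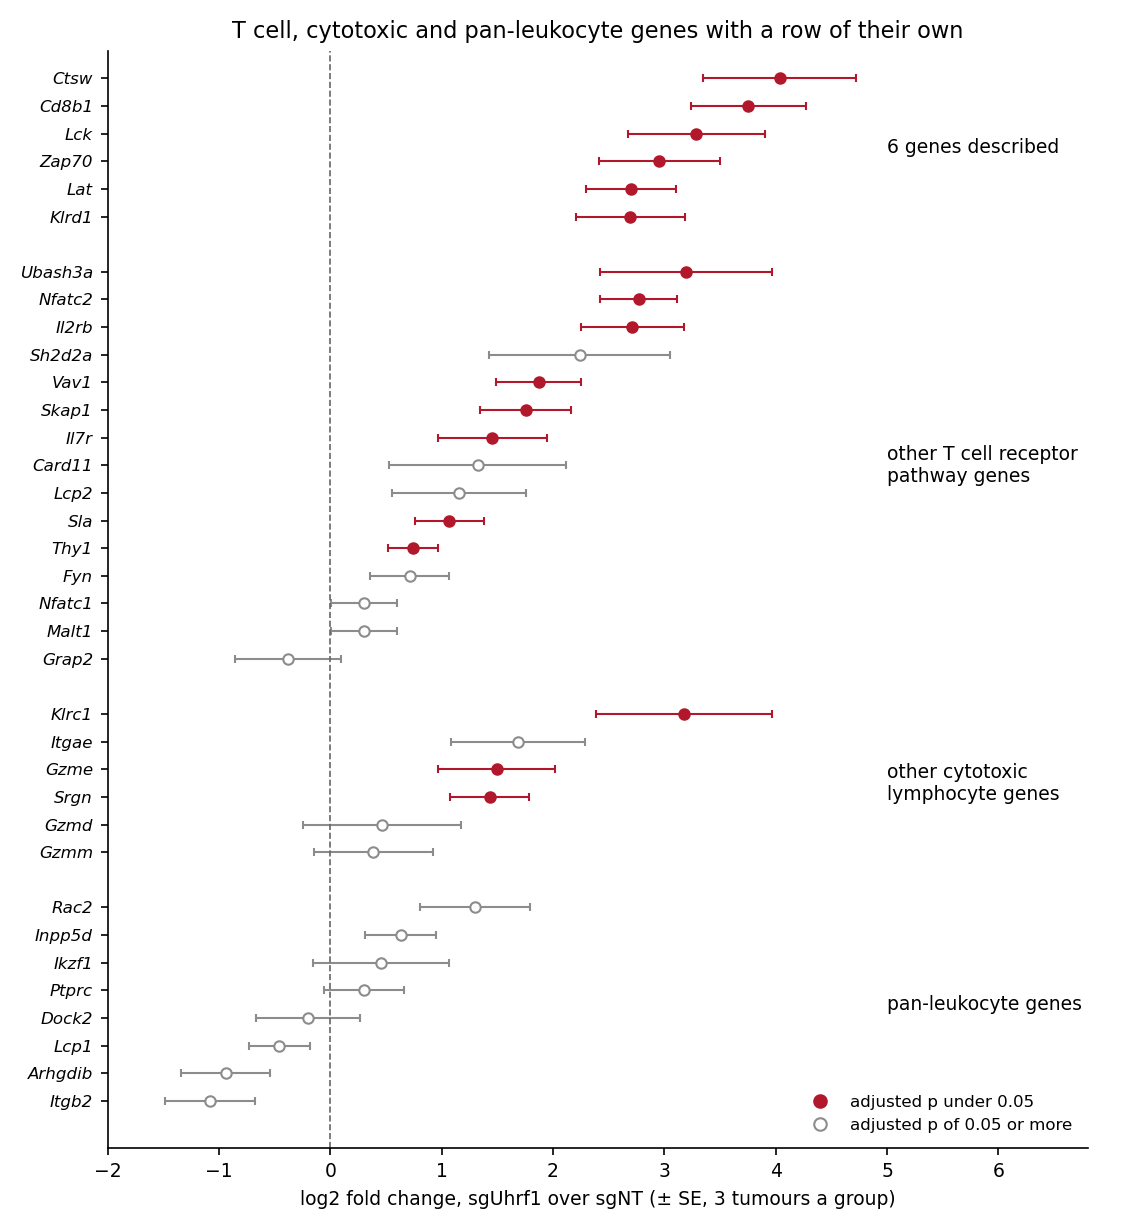
Log2 fold changes of sgUhrf1 over sgNT tumours (± SE, 3 tumours a group) for the 6 genes, then for other T cell receptor pathway, other cytotoxic lymphocyte and pan-leukocyte genes with a row of their own. The 6 genes lie between 2.69 and 4.03, the pathway genes between -0.38 and 3.19, and none of the 8 pan-leukocyte genes has an adjusted p under 0.05.

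Among genes shared by all white blood cells, no rise was called in rows of their own, while some shared rows were higher. Of 22 pan-leukocyte genes, 9 have a row of their own and 8 were tested; 0 rose and 0 fell in edgeR, 3 had an unadjusted p under 0.05, and the median was 0.05. DESeq2 called 0 higher and 1 lower, limma-voom 0 higher and 2 lower, and edgeR with no filter on low counts 2 of 9 lower. Ptprc, the gene of CD45, stood at 13.1, 7.62 and 11.7 CPM in sgUhrf1 tumours and 7.28, 7.12 and 11.9 CPM in sgNT tumours (0.30 ± 0.36, edgeR adjusted p = 0.534). Itgb2 was at -1.08 ± 0.41 (adjusted p = 0.0605) and Rac2 at 1.30 ± 0.50 (adjusted p = 0.0634). Of the 11 tested rows that such genes share with others, 4 were higher and 0 lower, where 20.2% of all rows tested were higher. How the reads of these rows divide between the genes was not tested.

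Markers of other lymphocytes are few among the named rows. Of 15 NK cell genes 3 have a row, summing to 17.7, 12.4 and 11.0 CPM in sgUhrf1 tumours and 16.6, 11.6 and 9.57 CPM in sgNT tumours. Il18rap, the only one tested in a row of its own, was at 0.04 ± 0.31 (edgeR adjusted p = 0.931). NK cell genes also lie in 3 tested rows shared with other genes, and 3 of 3 were higher, against 20.2% of all rows tested. These rows cover Txk with Nipal1, Itga2 with Mocs2, and Mcpt-ps1 with Cma1 and Gm48925. The row of Txk is counted in the pathway list too. Which of these genes gave the reads was not tested. Ncr1, which encodes the NK receptor NKp46, held 18, 1 and 4 counts in sgUhrf1 tumours and 6, 4 and 0 in sgNT tumours. Klrk1, which encodes NKG2D of NK and CD8 T cells, held 14, 1 and 35 counts in sgUhrf1 tumours and 2, 0 and 0 in sgNT tumours. Lck, Zap70, Lat, Klrd1 and Ctsw are all known in NK cells too, and how far each cell type gave their RNA was not tested.

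The level of the 6 genes in each tumour was then set beside the class I and interferon response. MHC class I genes, which load and present peptides to CD8 T cells, rose in 11 of 12 tested of 28 (14 with a row of their own), with a median log2 fold change of 3.85. The other tested gene, Erap1, which trims peptides for class I, had 4.43, 6.35 and 2.64 CPM in sgUhrf1 tumours and 9.50, 8.45 and 10.5 CPM in sgNT tumours (-1.06 ± 0.39, edgeR adjusted p = 0.0577); it was named after its values were seen. DESeq2 and limma-voom each called 11 higher and 1 lower. Tap2, which carries peptides into the endoplasmic reticulum, rose by 3.57 ± 0.31 (edgeR adjusted p = 0.000136), H2-Q7 by 4.55 ± 0.43 (adjusted p = 0.000176) and H2-Q4 by 4.04 ± 0.43 (adjusted p = 0.000289). H2-Q2 had 13.6, 22.1 and 21.5 CPM in sgUhrf1 tumours, against 0.158, 0 and 0 CPM in sgNT tumours. It passed the filter on low counts only through sgUhrf1 tumours, as did Cxcl11 among the interferon genes. Counts, medians and levels of the class I and interferon lists are therefore descriptions and no support for a difference. The H2-Q genes are close copies of each other, and how reads divide among them is uncertain. Interferon response genes rose in 10 of 13 tested of 50 (14 with a row), with a median of 3.61 (10 higher and 0 lower in both DESeq2 and limma-voom). Among them Cxcl11, a chemokine for activated T cells, had 68.3, 39.5 and 115 CPM in sgUhrf1 tumours and 0.950, 0.445 and 1.42 CPM in sgNT tumours (6.30 ± 0.53, adjusted p = 0.000136). Oas2 and Oas3, sensors of double-stranded RNA, were 20.0-fold and 16.1-fold higher, and Irgm2, an interferon-induced GTPase, rose by 2.92 ± 0.28.

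As a mean of log2 CPM, the 6 genes stood at 4.51, 4.05 and 5.18 in sgUhrf1 replicates 1 to 3 and at 1.75, 0.81 and 1.86 in sgNT replicates 1 to 3. The difference of the group means was 3.11 on the log2 scale. The class I level, over 12 genes, was 7.46, 7.22 and 7.83 in sgUhrf1 tumours and 4.40, 3.43 and 4.45 in sgNT tumours, a difference of 3.41. The interferon level, over 13 genes, was 5.16, 4.90 and 5.59 in sgUhrf1 tumours and 2.46, 2.14 and 2.91 in sgNT tumours, a difference of 2.71. In both groups and for all 3 levels, replicate 3 was the highest and replicate 2 the lowest, although sgNT replicates 1 and 3 were close on the T cell and class I levels. The pan-leukocyte level was 3.64, 3.18 and 4.26 in sgUhrf1 tumours and 3.40, 3.74 and 4.07 in sgNT tumours, with the same order among the sgUhrf1 tumours and, among the sgNT tumours, replicate 3 again the highest but replicate 1 the lowest.

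Most genes of the T cell, class I and interferon lists followed this order. Of the 6 genes, 6 were highest in sgUhrf1 replicate 3 and 5 were lowest in sgUhrf1 replicate 2; scaled by total counts instead of TMM, 4 and 6 were. Among the sgNT tumours 4 of 6 were highest in replicate 3 and 5 of 6 lowest in replicate 2. Class I genes were lowest in sgNT replicate 2 in 12 of 12 (11 scaled by total counts), and in sgUhrf1 replicate 2 in 9 of 12. Of the interferon genes, 10 of 13 were highest in replicate 3 of each group. Scaled by total counts, 8 of these 13 and 7 of the 12 class I genes were highest in sgUhrf1 replicate 3. The order of the 3 levels stayed the same on that scaling, but class I was close in sgUhrf1 replicates 1 and 3 (7.52 and 7.54). The order was not particular to these lists: of 8 pan-leukocyte genes, 7 were highest in sgUhrf1 replicate 3 and 7 lowest in sgUhrf1 replicate 2, and 5 were highest in sgNT replicate 3 and 5 lowest in sgNT replicate 1. Scaled by total counts, 5 of the 8 were highest in sgUhrf1 replicate 3. The 6 further cytotoxic genes tested had another order. Of these, 3 were highest in sgUhrf1 replicate 2, 4 highest in sgNT replicate 1 and 4 lowest in sgNT replicate 3. Of the 15 pathway genes tested, 11 were highest in sgUhrf1 replicate 3, but 7 each in sgNT replicates 1 and 3. The muscle-rich sgNT replicate 2 is thus the tumour lowest in T cell genes and in class I genes; the muscle-rich sgUhrf1 replicate 1 lies in the middle of its group, and the part of muscle RNA in this order was not tested.

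The distance between the levels was also taken in each tumour, as a description. The T cell level lay below the class I level by a difference of -2.95, -3.17 and -2.65 in sgUhrf1 tumours and of -2.65, -2.62 and -2.59 in sgNT tumours. Against the interferon level the difference was -0.64, -0.85 and -0.41 in sgUhrf1 tumours and -0.71, -1.33 and -1.05 in sgNT tumours. In both cases the ranges of the groups touch or overlap. This follows from the like differences between the groups of the T cell, class I and interferon levels (3.11, 3.41 and 2.71). It does not show that the levels vary together within a group. Against the pan-leukocyte level it was 0.87, 0.87 and 0.92 in sgUhrf1 tumours, and -1.66, -2.93 and -2.21 in sgNT tumours, which do not overlap. In summed CPM, the 6 genes made 0.619, 0.796 and 0.804 of the pan-leukocyte sum in sgUhrf1 tumours and 0.123, 0.0445 and 0.113 of it in sgNT tumours. The pan-leukocyte level itself differed by only -0.05 between the group means. Both comparisons with it therefore mainly restate the difference in the 6 genes and add no support for it.

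The tumours fall into separate groups on all these levels but the pan-leukocyte one, so no correlation over the 6 tumours is given. T cell, class I and interferon RNA were therefore higher in the same tumours, and whether they vary together beyond the difference between the groups was not tested.

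**Figure D4:**
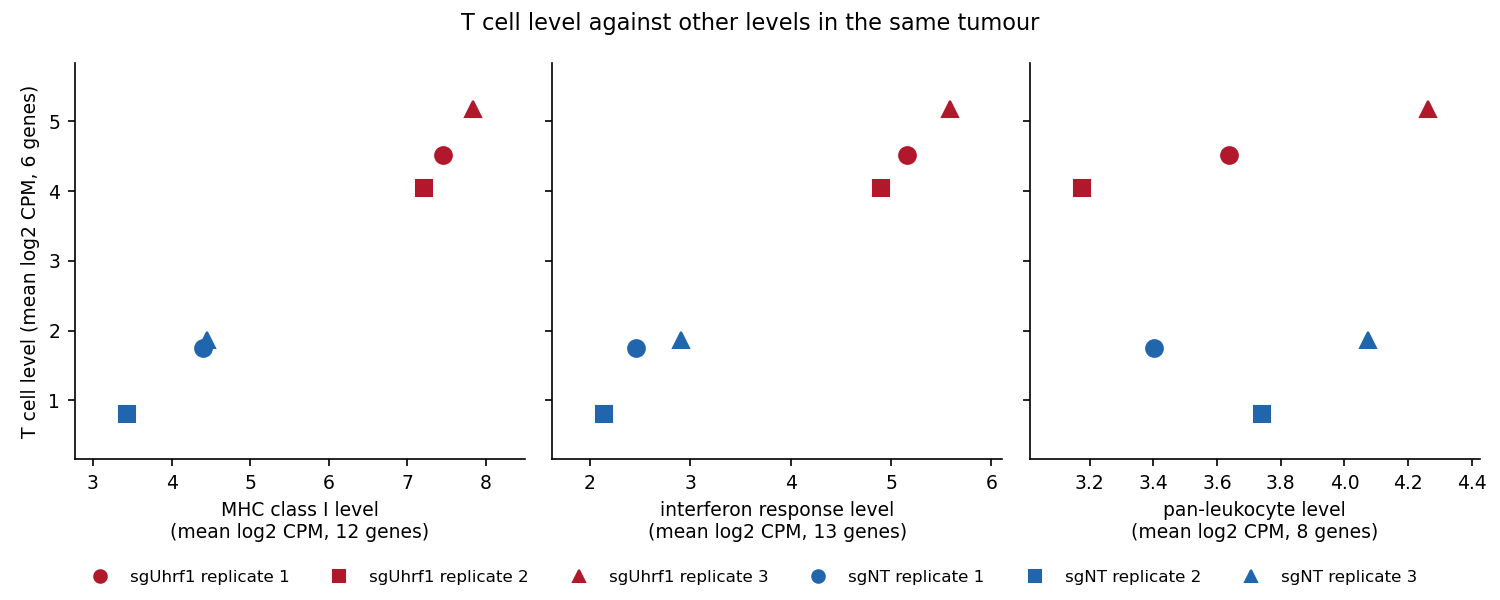
The T cell level (mean log2 CPM of the 6 genes) of each tumour against its MHC class I, interferon response and pan-leukocyte level (mean log2 CPM), with sgUhrf1 and sgNT tumours in separate colours and a marker for each replicate. On the first 2 panels both groups lie apart on both axes, with replicate 3 the highest of each group (5.18 and 1.86 on the T cell axis); on the third panel they overlap on the horizontal axis.

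Genes with the profile most like that of the 6 were ranked by the root mean square difference of their centred log2 CPM over the 6 tumours, among 4379 genes. The median gene differed by 1.68, and the 6 genes themselves by 0.28 to 0.53 from their own mean profile. The 10 closest genes were H2-DMb1 (0.22), H2-Eb1 (0.24), Slfn1 (0.28), Ikzf4 (0.28), H2-K1 (0.29), Sp100 (0.30), Tap2 (0.30), Irgm2 (0.30), Olfr99 (0.31) and Casp4 (0.31). H2-DMb1 and H2-Eb1 belong to the MHC class II pathway, and H2-K1 and Tap2 to class I. H2-Eb1 had 483, 269 and 596 CPM in sgUhrf1 tumours, against 69.8, 40.3 and 92.2 CPM in sgNT tumours, and H2-K1 had 12183, 11784 and 16761 CPM, against 1415, 754 and 2345 CPM. The measure mostly reflects the size of the difference between the groups and is a description only.

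Promoters are shown for the signalling genes, as the 250 bases before the first annotated start (RefSeq, GRCm38.p6, 5′ to 3′ on the strand of the gene). The table held a start for 3 of the 6 genes, Lck, Zap70 and Lat. Capitals mark the letters TGTGGT, a core bound by RUNX factors, and AGGAAG, a core bound by ETS factors, searched on both strands, so that CTTCCT is AGGAAG on the other strand. A motif of interferon regulatory factors, GAAA followed by any 2 bases and GAAA again, was searched as well.
Lck promoter, chr4:129573642-129573891 (minus strand): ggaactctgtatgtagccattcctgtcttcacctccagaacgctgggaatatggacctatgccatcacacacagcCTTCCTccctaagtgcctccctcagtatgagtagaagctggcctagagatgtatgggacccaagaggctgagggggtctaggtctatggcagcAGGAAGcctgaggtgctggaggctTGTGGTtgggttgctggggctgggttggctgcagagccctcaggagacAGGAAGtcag
Zap70 promoter, chr1:36761548-36761797 (plus strand): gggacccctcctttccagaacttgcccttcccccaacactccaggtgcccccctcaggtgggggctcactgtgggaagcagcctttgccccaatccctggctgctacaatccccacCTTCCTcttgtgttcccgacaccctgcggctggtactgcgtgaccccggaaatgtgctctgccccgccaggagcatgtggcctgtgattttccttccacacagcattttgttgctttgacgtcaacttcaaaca
Lat promoter, chr7:126369569-126369818 (minus strand): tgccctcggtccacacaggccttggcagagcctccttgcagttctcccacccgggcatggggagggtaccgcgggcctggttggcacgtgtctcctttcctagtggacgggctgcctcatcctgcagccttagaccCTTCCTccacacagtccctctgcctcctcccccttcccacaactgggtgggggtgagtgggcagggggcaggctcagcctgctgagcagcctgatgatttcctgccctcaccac

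Lck holds TGTGGT 58 bases and AGGAAG 10, 82 and 175 bases before its start. Zap70 and Lat each hold AGGAAG on the other strand, 134 and 114 bases before theirs. Zap70 and Lck have later annotated starts too, with windows not printed. Before the second Zap70 start lie TGTGGT at 75 bases and AGGAAG at 38 and 171 bases. Before the second Lck start lies AGGAAG at 114 bases, and the window of the third Zap70 start holds neither. Of 32851 windows of the same length before annotated starts, 14% hold TGTGGT, 29.5% AGGAAG and 2.98% the interferon regulatory factor motif, which none of the 3 printed windows holds. A match describes letters only, and the counts say nothing about which factor is bound.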

How the data were processed

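RNA of 6 whole tumours, 3 sgUhrf1 and 3 sgNT, was read. The authors deposited raw counts for each tumour. Per the submitters' processing notes fastp trimmed the reads, STAR aligned them to GRCm38 and featureCounts counted them; per the file headers this was featureCounts 2.0.1 on GENCODE M26, without strand. GENCODE M26 follows another build, so each of 53599 rows was renamed where its intervals cover at least 50 bp of exon of 1 GENCODE M21 gene: 13437 rows, 40.3% of counts, were named, and 4952 rows, 57.85% of counts, cover several genes. The row with most counts stood for a gene.

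The test was the edgeR 4.0.16 quasi-likelihood F test in R 4.3.3, with TMM scaling, filterByExpr (count of 10, total of 15), Benjamini-Hochberg adjustment over all 10503 rows that passed and a threshold of 0.05; the script was tested on simulated data. P-values set the difference between the groups against the spread between these tumours. The tumours of a group came from the same line, so differences between lines are not covered. Levels are means of log2 CPM (prior count 2). Refits used DESeq2 1.42.0, limma 3.58.1, other filters, scaling and row rules, a replicate block, and fewer tumours. The members and lists were chosen with earlier results of these data known. Besides the 6 genes, the text names up to 4 genes past the threshold per list by lowest p, up to 2 where none passed, certain shared rows, and the 10 nearest profiles; others were named after their values were seen.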

Additional observations from a re-analysis of the deposited data

How the results depend on the processing

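The log2 fold changes of the 6 genes kept their direction and stayed past the threshold in 90 of 90 values over the refits, from 2.27 to 5.46. The refits share the same tumours, so these values are not independent. A minimum of 100 or 200 bp of exon keeps the same row and gives the same value by construction; Cd8b1 and Ctsw have no row of 200 bp. In edgeR 2121 rows were higher and 2066 lower in sgUhrf1 tumours. Leaving out 1 tumour gave 1431 to 2020 higher and 1259 to 1908 lower rows, 6 to 11 T cell receptor pathway genes and 1 to 4 cytotoxic lymphocyte genes. Without the most muscle-rich tumour of each group, 1094 rows were higher and 771 lower, with 4 pathway and 1 cytotoxic genes, over fewer tumours. With shared rows counted too, 13 rows of the pathway list and 7 rows of the cytotoxic list were higher. The difference in T cell level of 3.11 ran from 2.78 to 3.38 without 1 tumour and was 2.86 scaled by total counts, alternatives chosen after seeing the data. Same-numbered tumours are not stated to be pairs, and their deviations correlated at -0.08, -0.02 and 0.05; with replicate number as a block, 1838 rows were higher and 1807 lower, the 6 genes lay between 2.64 and 4.20, and 8 pathway and 4 cytotoxic genes were higher. Depth limits Ctsw most, with 9 counts over the sgNT tumours.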

Other observations

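Genes listed for other cell types and for lung epithelium were also compared between the groups. Of 6 tested monocyte and macrophage genes, 0 rose and 1 fell, Mertk, with a log2 fold change of -1.64 ± 0.58 (edgeR adjusted p = 0.0492). Among 3 tested dendritic cell genes Ccl22 and Itgax were higher in sgUhrf1 tumours (12.8-fold and 4.44-fold) and Wdfy4 was lower, and both tested neutrophil genes were higher, Csf3r 11.0-fold and Hdc 16.3-fold. Of 3 tested rows that neutrophil genes share with others, 2 were higher and 1 lower. Of 5 tested lung epithelial genes 4 were higher, Sftpd, Hopx, Krt7 and Cdh1 by 5.79-fold to 111-fold. Of 8 tested fibroblast genes 1 was higher and 3 were lower, among them Fn1. Of the 3 skeletal muscle and 5 endothelial genes tested, 0 were called in edgeR; 0 and 2 had an unadjusted p under 0.05, and DESeq2 called 0 and 1. The only B cell gene tested, Blk, was at 0.98 ± 1.00, with 7.26, 11.1 and 8.58 CPM in sgUhrf1 tumours and 0.950, 0.148 and 12.8 CPM in sgNT tumours; limma-voom called it higher and edgeR and DESeq2 did not.

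The row listed as Cd8b1 lies upstream of the gene, at 71299772 to 71314478 on chromosome 6, over introns of Gm1070 and Smyd1 and no exon. It held 6, 1 and 20 counts in sgUhrf1 tumours and 0, 0 and 0 in sgNT tumours. Replicate 3 was the highest of the sgUhrf1 tumours and replicate 2 the lowest.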
